A study of Mus musculus with 9 samples.

Results

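Immediate early genes are transcribed within minutes of a stimulus and need no new protein for it. The levels of 10 of them were followed in sorted liver macrophages. The proteins of the Fos family (Fos, Fosb) pair with those of the Jun family (Jun, Junb, Jund) to form AP-1, a transcription factor that binds the letters TGANTCA. Egr1, Egr2 and Egr3 are zinc finger transcription factors that bind GC-rich sites, Atf3 is a stress-induced relative of the AP-1 proteins that pairs with Jun proteins, and Ier2 is a small nuclear protein induced together with them. In macrophages these genes are known to answer growth factors, Toll-like receptor ligands and cell stress through MAP kinases, SRF with its ternary complex partners, and CREB, and they are also known to answer the enzymatic digestion of tissue. The genes were chosen by their symbols, with the knowledge that Egr1 stood among the genes with the lowest DPI level relative to vehicle. All 10 were found among the 23413 genes of the count table, and all 10 were among the 11393 genes that passed the filter on low counts. Since that choice used the DPI and vehicle libraries, differences between these groups are given below as a description with no test.

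The libraries came from male C57BL/6 mice placed at 5 weeks of age on normal chow (NC) or a high-fat diet (HFD) for 8 weeks. HFD-fed mice received intraperitoneal injections every 5 days from week 3 of either the vehicle PEG3000 or diphenyleneiodonium (DPI, an iodonium compound known as a flavoenzyme inhibitor and studied here as an agonist of the receptor GPR3) at 2 mg/kg. The sample labels describe the treatment in another way, as 500 nM DPI or DMSO for 24 h on purified cells, and whether the NC mice were injected is not given in the sources used here. The groups held 2 NC, 3 HFD vehicle and 4 HFD DPI libraries, named below by group and number, and the labels give each as 1 mouse. The study describes more mice per group than there are libraries, so the SD and n below are those of libraries. Livers were digested with collagenase, F4/80+CD11b+Gr1low macrophages were sorted, and polyA RNA was sequenced. The comparison of vehicle with NC asks what the diet with vehicle does to these genes, and that of DPI with vehicle what the compound does on the same diet.

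Depth and purity differed among the libraries. Totals ran from 3534325 to 15585775 counts, of which 27% to 44.5% fell on the ribosomal RNA precursor Rn45s, and 3 counts, taken as the floor of detection, amounted to 0.184 to 1.02 CPM (counts scaled to the TMM-adjusted library size). NC 1 and NC 2 stood further apart from each other, with a Spearman correlation of 0.74 across genes, than any pair of vehicle libraries (0.867 to 0.88) or DPI libraries (0.838 to 0.887). With the HFD libraries NC 1 had 0.753 to 0.768 and NC 2 had 0.794 to 0.838, so NC 2 was nearer to them than to NC 1. General macrophage markers such as Lyz2, Csf1r and Cd68 were counted in every library. The defining Kupffer cell genes were sparse: Clec4f had 0 counts in 3 libraries, Vsig4 and Timd4 in 5 each and Marco in 8, and the summed level of 10 Kupffer cell markers lay at 41.2 to 159 CPM in NC, 94.9 to 130 CPM in vehicle and 78.5 to 133 CPM in DPI libraries. That sum is no measure of Kupffer cells, since Id1 and Slc40a1, which other cells also express, can carry it, as in vehicle 3 with 296 and 85 counts and 2 counts on the other markers together. The cells are therefore called liver macrophages below. Summed levels of 9 neutrophil markers were 1478 to 3337 CPM in NC, 2582 to 3992 CPM in vehicle and 921 to 5704 CPM in DPI libraries, with DPI 4 the highest and DPI 2 the lowest. The 7 sinusoidal endothelial markers summed to 120 to 185 CPM in both NC libraries, to 9.43 to 12.9 CPM in the vehicle libraries and to 4.27 to 139 CPM in the DPI libraries, with DPI 1 the highest and DPI 3 the lowest. Dendritic cell markers (8 genes) summed to 136 to 139 CPM in NC, 227 to 336 CPM in vehicle and 136 to 450 CPM in DPI libraries, and B cell markers (6 genes) to 14.9 to 72.1 CPM, 93.9 to 188 CPM and 15.6 to 423 CPM. Both sums were higher in every vehicle library than in NC, and DPI 4 had the highest of each. The dendritic differences rest largely on 1 gene, Ccr7. It had 0 and 250 counts in NC, 516, 1524 and 572 in vehicle and 554, 218, 656 and 3132 in DPI libraries. Its level reached 320 CPM in DPI 4, so the dendritic sum is no measure of dendritic cells. Eosinophil markers (7 genes) summed to 73.6 to 103 CPM in NC, 59.0 to 71.5 CPM in vehicle and 35.1 to 178 CPM in DPI libraries, and granule genes among them were counted mainly in DPI 1, 2 and 4. Prg2 had 1296, 265, 2 and 468 counts and Epx 151, 18, 0 and 101 counts in DPI 1 to 4, against at most 10 counts of Prg2 and 0 of Epx in any NC or vehicle library. Hepatocyte markers (10 genes) summed to 1368 to 1593 CPM in NC, 870 to 1302 CPM in vehicle and 743 to 1773 CPM in DPI libraries, and monocyte markers (7 genes) to 3352 to 3945 CPM, 3398 to 4344 CPM and 2707 to 5841 CPM. The hepatocyte sum was carried by Hp (529 to 1437 CPM over the 9 libraries) and Trf (127 to 299 CPM), while Alb ran from 5.44 to 107 CPM. It is therefore not read as an amount of hepatocytes. The part of these other cells in the values below was not tested, and in bulk samples fewer cells that express a gene cannot be told apart from less of its RNA per cell.

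Promoter sequence bears on genes that are known to be switched on together. Windows from 250 bases before to 50 bases after the start were searched for 7 of the 10 genes, among 32851 promoters of RefSeq (GRCm38.p6). Ier2 and Egr3 had no window there, and Egr1 was left out of the search, so nothing is said of its sites. The window of Jund ends upstream of the gene position given below and that of Atf3 lies inside the gene, so the starts of these 2 genes as positioned below were not searched. Both strands were searched for the cAMP response element TGACGTCA, its core TGACG, the AP-1 site TGANTCA, the EGR site GCGNGGGCG, the ETS core GGAA and the CArG box that SRF binds. The core lies within the full response element, and a match is only a match of letters. The 7 genes had 11 windows, and a gene was counted if any of its windows matched, whereas the shares of all promoters are of single windows. The core was found in 5 of these 7 genes (Fos, Fosb, Junb, Egr2 and Atf3) and in 20.8% of all promoters, the CArG box in Egr2 (1.63% of all promoters) and the EGR site in Fosb (5.55%). The full element (1.79%) and the AP-1 site (7.81%) were found in no window of the 7, and the ETS core in all 7 and in 96% of all promoters. The stretches from 120 to 11 bases before the start are shown for a gene from each family whose window holds a searched site, on the strand of the gene, with CREB-type cores, the CArG box and the EGR site in capitals.
Fos, chr12:85473770-85473879, plus strand: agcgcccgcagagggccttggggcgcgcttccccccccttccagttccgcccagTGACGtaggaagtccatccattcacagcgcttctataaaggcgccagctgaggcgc
Fosb, chr7:19310056-19310165, minus strand: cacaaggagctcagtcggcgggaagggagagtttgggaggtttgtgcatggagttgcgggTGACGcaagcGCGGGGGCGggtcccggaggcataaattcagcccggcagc
Junb, chr8:84978759-84978868, minus strand: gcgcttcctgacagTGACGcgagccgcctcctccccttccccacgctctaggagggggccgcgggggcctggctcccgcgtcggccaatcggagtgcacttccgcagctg
Egr2, chr10:67537749-67537858, plus strand: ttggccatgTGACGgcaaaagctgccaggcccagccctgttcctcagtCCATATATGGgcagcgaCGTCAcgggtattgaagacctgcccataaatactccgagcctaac
In Fos the core shown lies 66 to 62 bases before the start, and another lies upstream of the stretch shown, 129 to 125 bases before it. In Fosb the core (60 to 56 bases before it) is followed by the EGR site (50 to 42 bases). In Junb the core lies 106 to 102 bases before the start. In Egr2, which has several annotated starts, the CArG box (72 to 63 bases) lies between a core on the gene's strand and a core on the other strand.

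Fos (chr12:85473890-85477273, plus strand, positions here and below in GRCm38 from GENCODE M21) was among the most abundant of the 10 genes. Its level was 1104 and 1725 CPM in NC 1 and 2, 1468, 2842 and 1699 CPM in vehicle 1 to 3, and 1356, 1042, 1482 and 1989 CPM in DPI 1 to 4. Vehicle 2 was the highest library, and the 3 groups overlapped. Fosb (chr7:19302696-19310051, minus strand), whose protein takes the place of Fos in AP-1, was lower by over an order of magnitude in CPM, at 88.3 and 74.7 CPM in NC, 69.7, 115 and 83.8 CPM in vehicle and 44.3, 34.3, 24.9 and 67.0 CPM in DPI libraries. All 4 DPI libraries lay under every NC and every vehicle library, with DPI 4 just under vehicle 1. Fosb counts came to 8.00% and 4.33% of Fos counts in NC, 4.75%, 4.03% and 4.93% in vehicle and 3.27%, 3.29%, 1.68% and 3.37% in DPI libraries, so that the DPI libraries were lowest within libraries too.

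**Figure D1:**
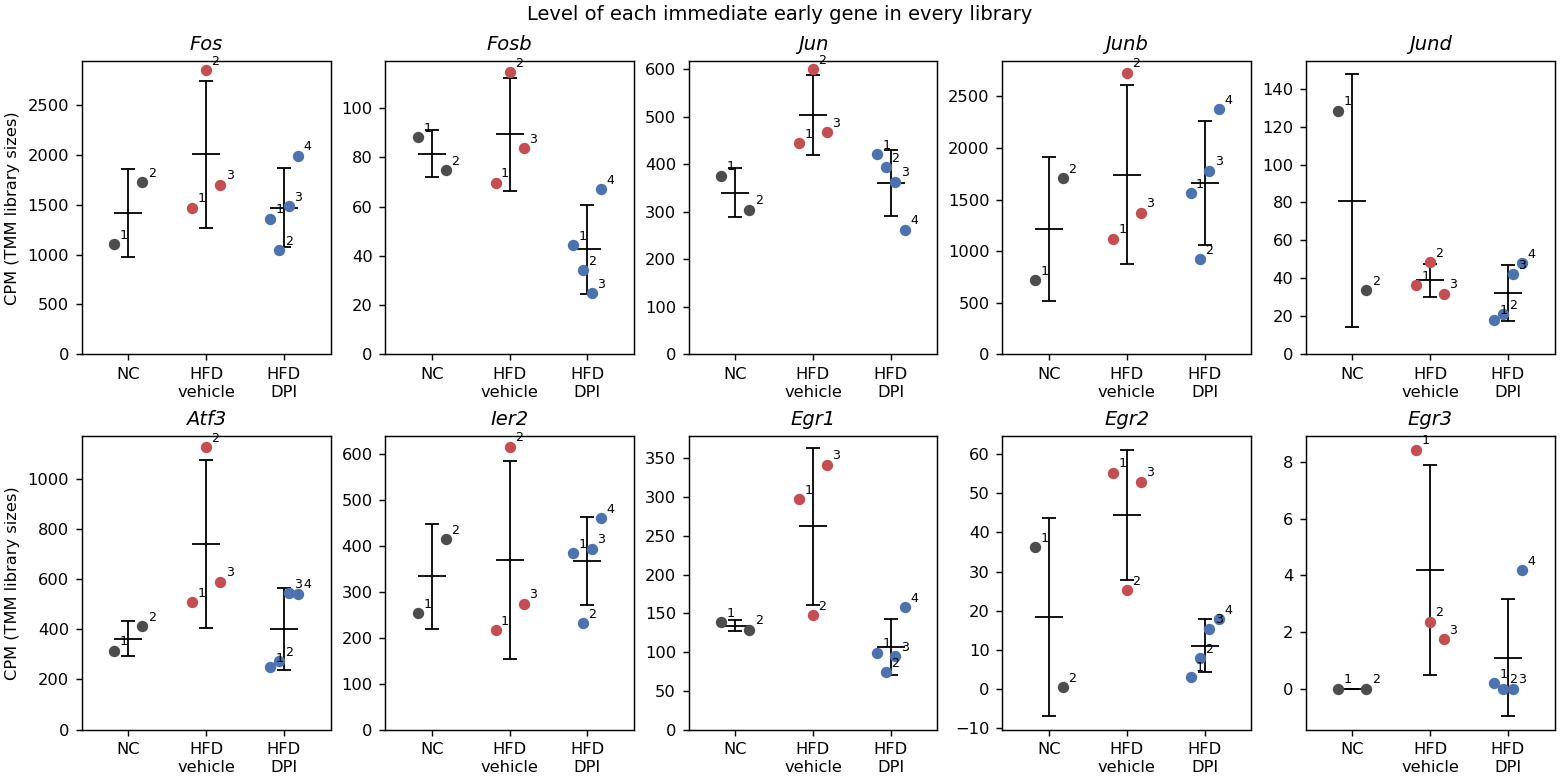
Level of each of the 10 genes (vertical axis, CPM with TMM library sizes, a separate linear scale per gene) in every library of the NC, HFD vehicle and HFD DPI groups (horizontal axis). Points are libraries with their number, and the bars show the mean and SD over 2, 3 and 4 libraries. Vehicle 2 is the highest point for Fos, Fosb, Jun, Junb, Ier2 and Atf3 but the lowest vehicle point for Egr1 and Egr2.

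The Jun genes encode the partners of Fos and did not share a pattern. Jun, a single-exon gene (chr4:95049034-95052222, minus strand), stood at 376 and 304 CPM in NC, 445, 600 and 468 CPM in vehicle and 421, 393, 363 and 262 CPM in DPI libraries, so every vehicle library was above every other library. Junb (chr8:84974484-84978718, minus strand), which can also hold back Jun activity, stood at 720 and 1706 CPM in NC, 1121, 2732 and 1372 CPM in vehicle and 1562, 921, 1782 and 2379 CPM in DPI libraries. The spread of Junb within each group was as wide as the distance between groups. Jund (chr8:70698949-70700616, plus strand), the member that is known for steady rather than induced expression, had 128 CPM in NC 1 but 33.8 CPM in NC 2, 36.4, 48.6 and 32.0 CPM in vehicle and 18.4, 21.1, 42.1 and 48.2 CPM in DPI libraries. Apart from NC 1, the level of Jund was under 50 CPM in every library. Jun counts relative to Junb counts ranged from 17.8% to 52.2% in NC, 22% to 39.7% in vehicle and 11% to 42.7% in DPI libraries, and these ranges overlapped. Jun overlaps the antisense gene Junos, Junb the gene Prdx2 on the other strand and Jund the antisense gene Gm11175, and without a stated strand setting the reads of such neighbours cannot be told apart.

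Atf3 (chr1:191170296-191218039, minus strand) and Ier2 (chr8:84661331-84662852, minus strand) were both well expressed. Atf3 stood at 314 and 412 CPM in NC, 509, 1126 and 590 CPM in vehicle and 249, 273, 545 and 542 CPM in DPI libraries. Vehicle libraries were above both NC libraries, DPI 1 and DPI 2 were under them, and DPI 3 and DPI 4 were within the range of vehicle. Ier2 stood at 252 and 413 CPM in NC, 216, 615 and 273 CPM in vehicle and 383, 232, 393 and 459 CPM in DPI libraries, with vehicle holding both the highest and the lowest library. Atf3 overlaps a small RNA gene, Gm24748, on the other strand.

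Among the Egr genes, Egr1 (chr18:34859823-34864984, plus strand) stood at 139 and 129 CPM in NC, 297, 148 and 342 CPM in vehicle and 99.4, 73.7, 94.6 and 158 CPM in DPI libraries. Vehicle 1 and vehicle 3 stood clear above all other libraries, while vehicle 2 was below DPI 4. Egr2 (chr10:67535475-67542188, plus strand), which is known to take part in macrophage differentiation and alternative activation, had 36.2 CPM in NC 1 and 0.374 CPM in NC 2 (199 and 2 counts), 55.3, 25.2 and 53.0 CPM in vehicle and 3.06, 7.81, 15.4 and 17.9 CPM in DPI libraries. All vehicle libraries were above all DPI libraries, NC 1 lay within vehicle and NC 2 under every other library. Egr3 (chr14:70077203-70082614, plus strand), which acts with Egr2 in lymphocytes, was near the floor, with 0 counts in both NC libraries, 38, 13 and 7 counts in vehicle libraries and 3, 0, 0 and 41 counts in DPI libraries. Its DPI level therefore rested on DPI 4, at 4.18 CPM, while vehicle libraries were at 8.43, 2.36 and 1.73 CPM. The 0 counts in an NC library allow a level of up to 0.546 and 0.560 CPM, which covers counting error only.

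Per kb of exon, which allows a comparison between genes, Junb and Fos led in every group. In vehicle libraries the level per kb was 963 ± 479 CPM for Junb, 950 ± 349 CPM for Fos, 344 ± 156 CPM for Atf3, 242 ± 142 CPM for Ier2 and 158 ± 26.3 CPM for Jun (SD, n = 3). Lower in the order came Egr1 at 58.5 ± 22.7, Fosb at 23.6 ± 6.08, Jund at 23.4 ± 5.17, Egr2 at 15 ± 5.65 and Egr3 at 1.06 ± 0.939 CPM per kb (SD, n = 3). The means of Junb and Fos and of Fosb and Jund differed by less than their SD, with the order changing between libraries. Those of Atf3 and Ier2 and of Ier2 and Jun differed by less than the larger SD, but the order was the same in all 3 libraries, while Jun was above Egr1 and Egr1 above Fosb by more than their SD. In DPI libraries the order was Junb (918 ± 333), Fos (696 ± 187), Ier2 (241 ± 63.2), Atf3 (187 ± 75.7), Jun (113 ± 21.7), Egr1 (23.7 ± 8.01), Jund (19.4 ± 8.95), Fosb (11.3 ± 4.79), Egr2 (3.72 ± 2.30) and Egr3 (0.277 ± 0.524 CPM per kb, SD, n = 4). There the mean differences of Junb and Fos and of Ier2 and Atf3 were under the larger SD, but Junb was above Fos and Ier2 above Atf3 in all 4 libraries. Atf3 was above Jun, Egr1 above Jund and Jund above Fosb in 3 of 4 libraries, with mean differences under the larger SD. In NC libraries Fos (671 ± 208) and Junb (671 ± 385) were level, and Jund, at 48.6 ± 40.0, was ahead of Egr1, at 29.8 ± 1.56 CPM per kb (SD, n = 2). With 2 libraries, of which NC 1 carried the Jund level, the order of these neighbours was within their SD.

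**Figure D2:**
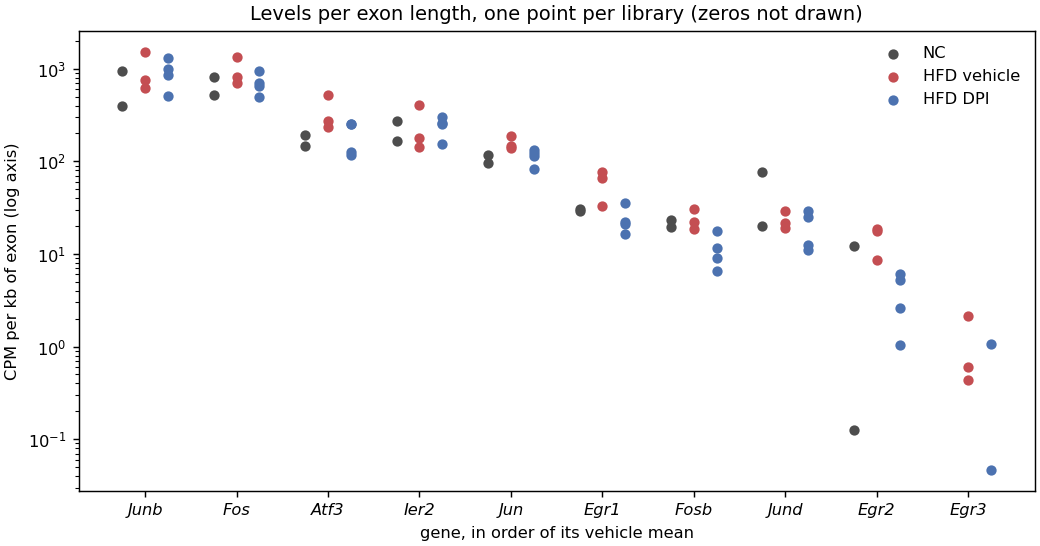
Level per kb of exon (vertical axis, CPM per kb, log axis) of the 10 genes (horizontal axis, in order of their vehicle mean), with a point for each NC, HFD vehicle and HFD DPI library. Junb and Fos lie near 1000 CPM per kb in vehicle and Egr3 near 1, and libraries at 0, all of them for Egr3, are not drawn.

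Vehicle-treated HFD-fed mice had higher Egr3 and Atf3 than NC-fed mice by the threshold used, an unadjusted p under 0.05 with at least a 2-fold change. Mean Atf3 was 742 ± 335 CPM (SD, n = 3) in vehicle and 363 ± 69.7 CPM (SD, n = 2) in NC libraries, a log2 fold change of 1.03 ± 0.44 (SE, edgeR adjusted p = 0.352). Mean Egr3 was at least 7.55-fold higher in vehicle libraries, at 4.18 ± 3.70 CPM (SD, n = 3), than the mean floor of 3 counts per NC library (edgeR adjusted p = 0.339). Egr1, at 262 ± 102 against 134 ± 7.01 CPM, missed the fold threshold with a log2 fold change of 0.97 ± 0.41 (SE, edgeR adjusted p = 0.352). Egr3, with no counts in NC, passed the filter on low counts only through the HFD libraries, so that its call could go only 1 way. None of the 10 was called lower. The 2 of 10 called higher, of which Egr3 is 1, stand beside 7.03% of all 11393 genes tested called higher and 4.63% called lower.

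The other AP-1 genes did not pass in vehicle against NC. Log2 fold changes were 0.50 ± 0.35 for Fos (SE, edgeR adjusted p = 0.571), 0.57 ± 0.30 for Jun (adjusted p = 0.43), 0.52 ± 0.46 for Junb (adjusted p = 0.681) and 0.13 ± 0.41 for Fosb (adjusted p = 0.936). Ier2 was at 0.15 ± 0.44 (adjusted p = 0.932) and Egr2, whose NC libraries stood far apart, at 1.28 ± 1.09 (adjusted p = 0.662). Without NC 1 the value of Egr2 was 6.83, against the 2 counts of NC 2 alone, which is no test since 1 library has no spread. Jund had the only negative value, -1.05 ± 0.55 (adjusted p = 0.43), which turned to 0.22 without NC 1. The median over the 10 genes was 0.54 and 9 were positive, where the median of all genes was 0.03 and 51.5% were positive. Jun, Egr1, Egr3 and Atf3 did not overlap between the groups, all higher in vehicle, and 15% of all genes did the same. Egr3, with no counts in NC, could go only 1 way here and among the 9 positive. By edgeR no member had an adjusted p under 0.05, against 0.0614% of all genes. Of the 10, 3 had an unadjusted edgeR p under 0.05, as did 1479 of all 11393 genes. DESeq2 gave 0 members by adjusted p as well, while it called 312 of all genes.

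Several of these values rest on single libraries or on the scaling. Atf3 missed the threshold without vehicle 2 (0.60, edgeR adjusted p = 0.594), and by the fold alone with RLE scaling or DESeq2 (both just under 1). Egr3 missed it without vehicle 1 (adjusted p = 0.517), where the bound on its fold fell from 7.55 to 3.70. Egr1 passed it without vehicle 2 (1.26, adjusted p = 0.258) or DPI 2 (1.01, adjusted p = 0.362). Without NC 1 or NC 2 only 1 NC library is left, so the spread comes from the HFD groups and no call is given. Atf3 was then at 0.86 without NC 1, and without NC 2 Junb was at 1.31 and Jund at -1.68. Scaling by library size alone moved the median of all genes to -0.26 and turned the split of calls from 801 higher and 528 lower to 539 and 933. Fosb and Ier2 then became negative, at -0.16 and -0.11, which lie 0.10 and 0.14 above that median. Atf3 was at 0.76 and Egr1 at 0.65, which lie 1.02 and 0.90 above it, and the call of Atf3 was lost (edgeR adjusted p = 0.481). Jund was called lower there (-1.35, adjusted p = 0.331).

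**Figure D3:**
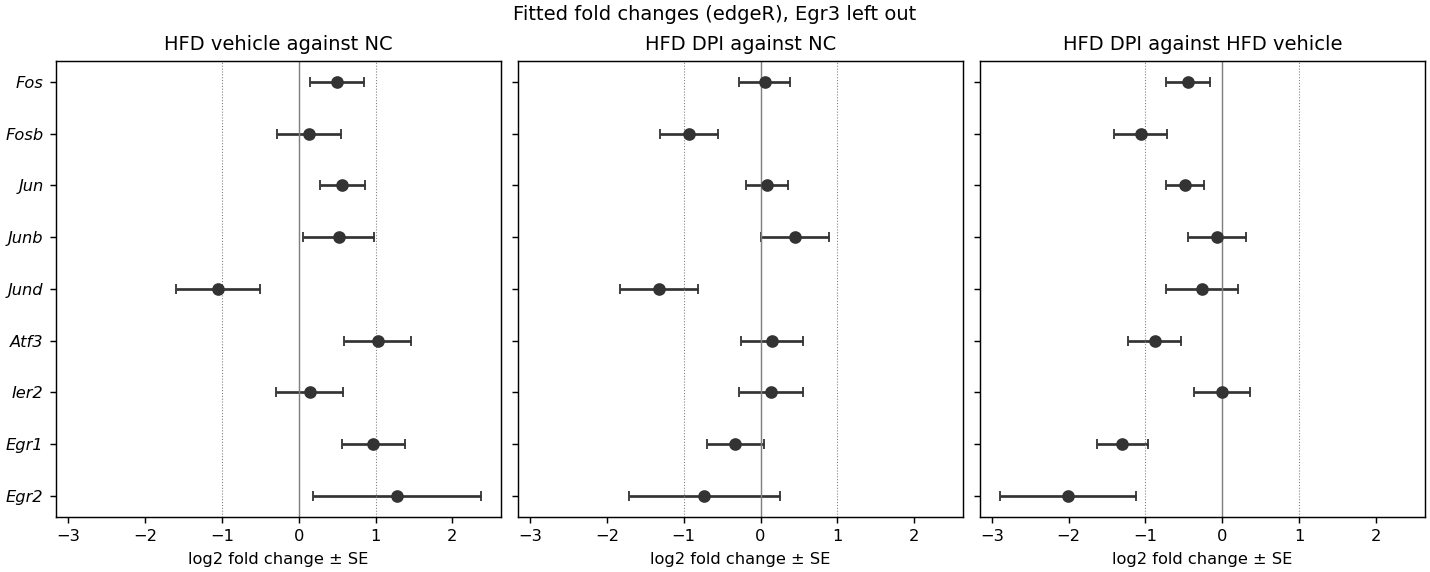
Log2 fold changes fitted by edgeR (horizontal axis, with bars of 1 SE) of 9 genes (vertical axis, Egr3 left out because NC holds no counts) for HFD vehicle against NC, HFD DPI against NC and HFD DPI against HFD vehicle. Dotted lines mark a 2-fold change. In vehicle against NC, Atf3 and Egr2 lie past the upper line and Jund past the lower one, of which only Atf3 passed the threshold. Jund lies past the lower line in DPI against NC, and Egr1, Egr2 and Fosb lie past it in DPI against vehicle, which is a description.

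DPI-treated HFD-fed mice stood close to NC-fed mice in most of the genes. Fos, with means of 1467 ± 394 (SD, n = 4) and 1414 ± 439 CPM (SD, n = 2), had a log2 fold change of 0.05 ± 0.33 (SE, edgeR adjusted p = 0.974). Jun was at 0.08 ± 0.28 (adjusted p = 0.945), Atf3 at 0.15 ± 0.40 (adjusted p = 0.926), Ier2 at 0.14 ± 0.41 (adjusted p = 0.934) and Junb at 0.45 ± 0.44 (adjusted p = 0.76). Egr1, at 106 ± 35.9 against 134 ± 7.01 CPM, had -0.33 ± 0.37 (adjusted p = 0.8) and Egr2 -0.73 ± 0.98 (adjusted p = 0.839). Egr2 was at -1.69 without NC 2 and at 4.82 without NC 1, each against 1 NC library. With these errors the values do not show that the groups were alike.

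Jund was the only member called in DPI against NC, at -1.32 ± 0.51 (SE, edgeR adjusted p = 0.409). That call rested on NC 1, since the log2 fold change without it was -0.05. Jund also missed the threshold without DPI 1 (-1.12, edgeR adjusted p = 0.498) or DPI 2 (-1.12, adjusted p = 0.573). Fosb, at 42.6 ± 18.1 against 81.5 ± 9.64 CPM, had -0.93 ± 0.38 (adjusted p = 0.427), just under a 2-fold change. It passed the threshold without DPI 4 (-1.24) and with library size scaling (-1.12), and was at -1.02 without NC 2. Fosb was the only member whose groups did not overlap with DPI lower, as 8.5% of all genes did. Egr3 was at least 1.97-fold above the NC floor (adjusted p = 0.498), resting on DPI 4, which held 41 counts against 3 or fewer in each of the others. The counts of 0 members higher and 1 lower stand beside 6.24% and 3.05% of all genes. Under other settings Egr3 was called higher with no filter (edgeR adjusted p = 0.513), with DESeq2 (adjusted p = 0.359) and without DPI 3 (edgeR adjusted p = 0.622). With 1 NC library left, Egr2 was at 4.82 without NC 1, against the 2 counts of NC 2, and Junb at 1.23 without NC 2. By edgeR no member had an adjusted p under 0.05, against 0.00878% of all genes. Of the 10, 2 had an unadjusted edgeR p under 0.05, as did 1224 of all 11393 genes. DESeq2 gave 0 members by adjusted p as well, while it called 219 of all genes. Both comparisons with NC share the same NC libraries, and each takes its other group from the libraries by which the genes were chosen. With library size alone the median of all genes was -0.17, the calls over all genes changed from 711 higher and 347 lower to 546 and 624, and Fos (-0.13), Jun (-0.15), Ier2 (-0.04) and Atf3 (-0.04) turned negative, though each lay 0.02 to 0.13 above that median.

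Between DPI and vehicle, all 10 fitted values were below 0, which is given as a description because this contrast entered the choice of genes. With all libraries, the Egr genes had log2 fold changes of -1.30 ± 0.33 for Egr1, -2.01 ± 0.88 for Egr2 and -1.86 ± 1.62 for Egr3 (SE). Fosb was at -1.06 ± 0.34, the value just past a 2-fold change, and Atf3 at -0.88 ± 0.35 was just short of it. Jun was at -0.49 ± 0.24, Fos at -0.45 ± 0.29 and Jund at -0.26 ± 0.47. Junb (-0.07 ± 0.38) and Ier2 (-0.01 ± 0.36) lay near 0 and were positive with library size alone (0.02 and 0.07), where the median of all genes moved to 0.12, and without vehicle 2 (0.41 and 0.58). Fosb, Jun and Egr2 did not overlap between the groups. For reference only, 53.1% of all genes were above 0, 1.34% passed the threshold with DPI lower and 2.48% did not overlap in that direction. Nothing is read from these shares because the genes were chosen on this contrast. Leaving out each library in turn gave -1.59 to -1.07 for Egr1, -2.36 to -1.68 for Egr2 and -1.37 to -0.84 for Fosb. For Atf3 the range was -1.11 to -0.45. Egr3 was at -0.86 without vehicle 1, nearer 0 than Fosb (-1.22), Egr1 (-1.20) and Atf3 (-1.11), and without DPI 4 it had 3 counts in the DPI libraries together. Fosb (-1.12) lay beyond Egr1 (-1.07) without vehicle 3, so that the order of these genes rests on single libraries.

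The libraries ordered the genes in distinct ways. Vehicle 2 was the highest of the 9 libraries for 6 genes, Fos, Fosb, Jun, Junb, Ier2 and Atf3. Egr2 and Egr3 were highest in vehicle 1, Egr1 in vehicle 3 and Jund in NC 1. DPI 2, the library with the lowest total, was among the lowest 4 libraries for 9 genes, while DPI 4, with the highest neutrophil marker sum, was among the highest 3 for 6 genes. The 10 genes summed to 3158 and 4798 CPM in NC, 4226 to 8254 CPM in vehicle and 2999 to 5926 CPM in DPI libraries. The 3 Egr genes alone summed to 129 to 175 CPM in NC, 175 to 397 CPM in vehicle and 81.5 to 180 CPM in DPI libraries.

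**Figure D4:**
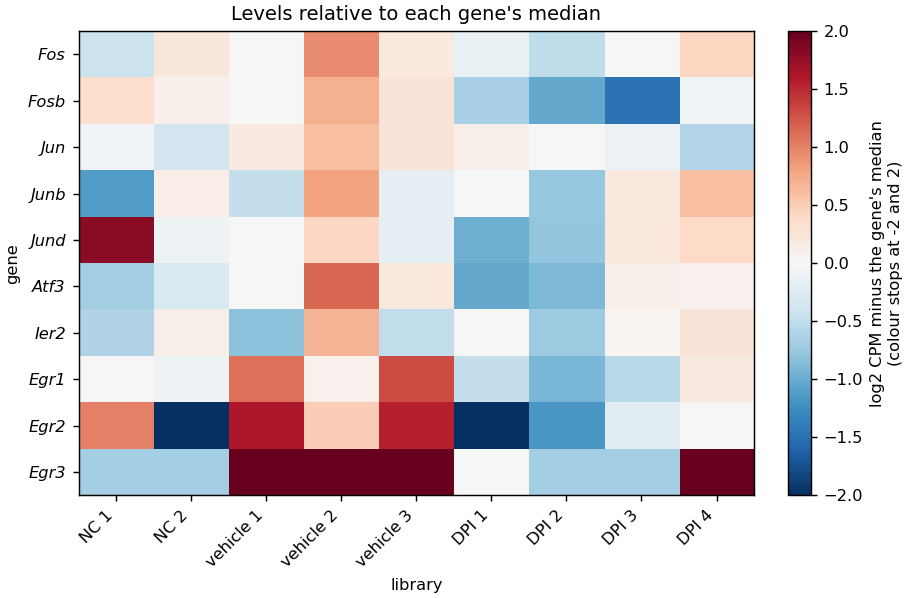
Log2 CPM of each gene (rows) in each library (columns) minus the median of the gene over the 9 libraries, with the colour scale ending at -2 and 2. Vehicle 2 is the deepest red of its row for Fos, Fosb, Jun, Junb, Ier2 and Atf3, whereas vehicle 1 and vehicle 3 are the deepest for Egr1 and Egr2.

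Egr1 and Fos, which are known to share signals, kept a narrow ratio in DPI libraries. Egr1 counts were 7.33%, 7.07%, 6.39% and 7.92% of Fos counts there (7.18% ± 0.635, SD, n = 4). In vehicle libraries they were 20.2%, 5.20% and 20.1%, and in NC libraries 12.6% and 7.47%. Vehicle 2 had the lowest ratio of all, so the ratio of Egr1 to Fos did not separate the groups. Atf3 counts were 34.7%, 39.6% and 34.7% of Fos counts in vehicle libraries, 28.4% and 23.9% in NC and 18.4%, 26.2%, 36.8% and 27.2% in DPI libraries, where DPI 3 fell within vehicle. Egr2 counts ranged from 15.5% to 18.6% of Egr1 counts in vehicle, from 3.08% to 16.3% in DPI and from 0.290% to 26.1% in NC libraries. Ratios within a library do not depend on the scaling between libraries.

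**Figure D5:**
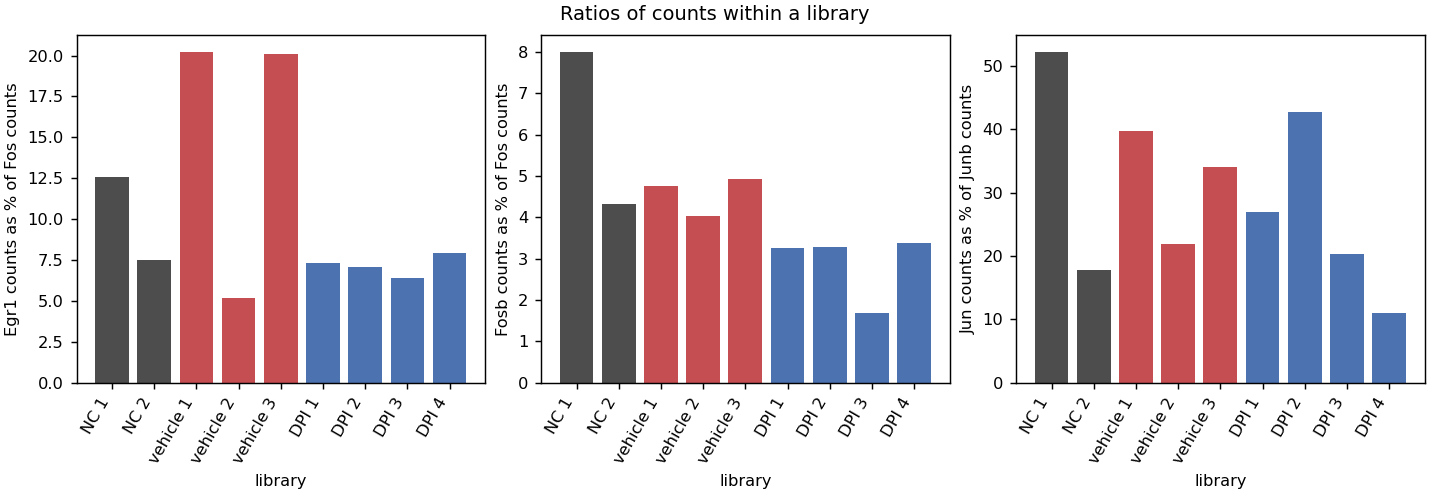
Counts of 1 gene as a percentage of the counts of another in the same library (vertical axes, percent, starting at 0), with a bar for each NC, HFD vehicle and HFD DPI library (horizontal axes). The panels give Egr1 over Fos, Fosb over Fos and Jun over Junb. The Egr1 to Fos ratio lies between 6.39% and 7.92% in the 4 DPI libraries and spreads from 5.20% to 20.2% in vehicle libraries.

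Likeness of pattern was measured as the root mean square difference of log2 CPM, each gene centred on its median, over the 9 libraries. The closest pairs were Junb with Ier2 (0.27), Fos with Junb (0.34), Fos with Ier2 (0.38) and Fos with Atf3 (0.41). Egr1 was closest to Fosb (0.65) and Fos (0.67) among the members, and its median difference to all other tested genes was 1.05. The 5 genes outside the group most like Egr1 were Nedd9 (0.22), a scaffold protein of adhesion signalling, Nfkbiz (0.25), a nuclear regulator of NF-κB, Csf2rb (0.27), the shared receptor chain for GM-CSF, and Gm5595 (0.29) and D930015E06Rik (0.29). Nfkbiz, for example, had means of 140 ± 43.3 CPM (SD, n = 2) in NC, 244 ± 77.5 (SD, n = 3) in vehicle and 114 ± 43.6 CPM (SD, n = 4) in DPI libraries. Most like the mean of the members were Dcaf17 (0.24), Malt1 (0.25), Ccrl2 (0.25), Fam49a (0.28) and Sertad1 (0.29). These are descriptions over 9 libraries that share their depth and composition with the members.

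Other genes of the same pathways were followed as lists, read by the same threshold beside the shares of all genes given above, with no adjusted p under 0.17 among the list genes named. The median of all genes was 0.03 in vehicle against NC, 0.04 in DPI against NC and 0.04 between DPI and vehicle. Of all genes 51.5%, 52.1% and 53.1% were positive in these comparisons. Of 30 tested of 33 other immediate early genes, 8 were called higher and 1 lower in vehicle against NC, and the median was 0.75 on the log2 scale with 24 positive. Zfp36, whose protein degrades cytokine mRNA, rose by 1.2 ± 0.39 from 1358 ± 352 to 3129 ± 506 CPM, Klf6, a zinc finger factor, by 1.26 ± 0.47 and Gadd45b, a stress sensor, by 1.31 ± 0.43 (SE), while Ier5 had -1.11 ± 0.45. In DPI against NC none of the list was called higher and Ier5 (-1.37 ± 0.41) and Rhob (-1.24 ± 0.53) were called lower, with a median of 0.22. Rhob was at 142 CPM in NC 1 and 28 CPM in NC 2, and the latter lay within the DPI libraries (19.0 to 50.7 CPM). Ier5 was at 137 and 62.2 CPM in the NC libraries. Between DPI and vehicle the genes named from the lists are those that passed the threshold on that same contrast, so their values are a description and support nothing. The orphan nuclear receptors Nr4a1 and Nr4a3 were chosen in this way and had -1.08 ± 0.40 and -1.53 ± 0.63, 3 of the 30 were positive and the median was -0.43. Nr4a1 had a mean of 788 ± 230 CPM in NC, 1770 ± 170 CPM in vehicle and 835 ± 582 CPM in DPI libraries.

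Among the other AP-1 and bZIP genes, of 17 tested, 2 were called higher and 1 lower in vehicle against NC (median 0.30), 2 higher and 1 lower in DPI against NC (median -0.06), and the median between DPI and vehicle was -0.28. Fosl2, a further Fos relative, had 1.36 ± 0.61 (SE) from 52.8 ± 9.23 CPM in NC to 136 ± 9.03 CPM in vehicle, and Fosl1, with 0 counts in NC, was at least 3.47-fold above the floor in vehicle and at least 2.07-fold in DPI libraries. Its counts were 2, 17 and 9 in vehicle and 19, 0, 3 and 28 in DPI libraries, and the bound in DPI libraries fell to 1.04-fold without DPI 4. Fosl1 is 1 of the 2 called higher in each comparison and, like Egr3, passed the filter only through the HFD libraries, so that its call could go only 1 way. Maf, a bZIP factor of macrophage identity, was lower than in NC in both, at -1.52 ± 0.66 and -1.40 ± 0.61, and Atf2 was higher in DPI than in NC, at 1.01 ± 0.44. Of 4 EGR family and corepressor genes only 2 were tested and none was called against NC, and Egr4 and Wt1 had 0 counts in all 9 libraries.

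Upstream of these genes, 17 regulators of the SRF, TCF and CREB group were tested. In vehicle against NC 2 were called higher (median 0.42), the CREB coactivators Crtc2 (1.56 ± 0.59, SE) and Crtc1, and none was called in DPI against NC (median -0.06), while the median between DPI and vehicle was -0.44. Crtc2 was at 27.9 and 8.96 CPM in NC and 76.4, 25.4 and 61.9 CPM in vehicle libraries, so vehicle 2 lay under NC 1. Crtc1 had 0 and 7 counts in NC and 12, 50 and 50 counts in vehicle libraries, and passed the filter only through the HFD libraries, so that its call could go only 1 way. Of 24 MAP kinase cascade genes 1 was called higher and 3 lower in vehicle against NC, with a median of -0.23, and 0 higher and 3 lower in DPI against NC, with a median of -0.20. Between DPI and vehicle their median was 0.06 and 13 of 24 were positive. The p38 kinase gene Mapk14 was lower than in NC in both, at -1.42 ± 0.45 and -1.31 ± 0.42, and Mapk3, which encodes ERK1, in vehicle at -1.09 ± 0.46. Map3k5 was lower in vehicle (-1.22 ± 0.47), Braf (-1.28 ± 0.50) and Mapk9 (-1.49 ± 0.64) in DPI libraries. For all 5 of these kinases NC 1 was the higher NC library, at 125 CPM against 48.6 CPM in NC 2 for Mapk14, 90.0 against 34.0 CPM for Map3k5, 43.5 against 18.5 CPM for Braf, 46.3 against 20.4 CPM for Mapk9 and 47.4 against 33.6 CPM for Mapk3. NC 2 lay within the DPI libraries for Mapk14 (25.2 to 50.6 CPM) and Mapk9 (5.77 to 22.8 CPM), and for Braf it was just above DPI 4 (18.3 CPM). Rps6ka2, which was called higher in vehicle, had 0 and 1 counts in NC and 112, 1 and 12 counts in vehicle libraries, and its call too could go only 1 way.

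Downstream, 23 of 26 AP-1 and EGR target genes were tested. In vehicle against NC 4 were called higher and none lower (median 0.85, 21 positive), among them the chemokine Ccl4 (1.26 ± 0.44, SE) and the membrane protease Mmp14 (2.27 ± 0.94), with 2 growth factor and cytokine genes at low counts. Mmp14 had 41 and 3 counts in NC, the latter at the floor, and 107, 95 and 71 counts in vehicle libraries. Hbegf had 0 counts in NC and 0, 4 and 30 counts in vehicle libraries, and Lif 0 and 1 counts in NC and 33, 1 and 20 counts in vehicle libraries. Hbegf and Lif passed the filter only through the HFD libraries, so these 2 of the 4 calls could go only 1 way. In DPI against NC none was called higher and Odc1, the first enzyme of polyamine synthesis, was called lower (-1.56 ± 0.54), with a list median of 0.37. Its level was 51.0 CPM in NC 1 and 12.7 CPM in NC 2, and the latter lay within the DPI libraries (7.60 to 14.1 CPM). Between DPI and vehicle Plau, which encodes urokinase and was chosen by that contrast, had -1.78 ± 0.79, with a list median of -0.53 and 3 of 23 positive. The 20 heat shock and digestion response genes had a median of 0.00 in vehicle against NC with 4 called higher, Id3 (1.76 ± 0.46), Bag3 (1.35 ± 0.41), Id2 (1.19 ± 0.43) and Nfkbia (1.05 ± 0.37), of which Bag3 is a chaperone partner. Their medians were -0.23 in DPI against NC, with Id3 (1.17 ± 0.44) called higher, and -0.27 between DPI and vehicle, where Nfkbiz, chosen likewise, had -1.09 ± 0.33. Summed over the 20 genes, levels were 7267 to 7557 CPM in NC, 6918 to 8851 CPM in vehicle and 6254 to 9625 CPM in DPI libraries, and these ranges overlapped. The part of the digestion in the levels of the 10 genes was not tested.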

How the data were processed

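Per the paper, the authors used bowtie2 and RSEM with the mm10 genome to count reads, while the submitters' processing notes name TopHat2 and edgeR, and whole-number raw counts per gene were deposited. Strand was not stated. Groups came from the labels, and the treatment from the paper. Counts were filtered with filterByExpr, scaled by TMM and fitted with glmQLFit in edgeR 4.0.16 (R 4.3.3) over all 9 libraries. Adjusted p-values are Benjamini-Hochberg values over 11393 genes. The SE is the log2 fold change over the root of F. The threshold (unadjusted p under 0.05, at least 2-fold either way) is that of the paper. p-values measure the spread between these libraries. Levels are CPM with TMM library sizes, and log2 CPM used a prior count of 2. Totals were 3534325 to 15585775 counts. Intervals and floors cover counting error only. Gene positions and exon lengths came from GENCODE M21. The members and gene lists were chosen with earlier results of these data known. List genes were named if called, at most 4 per list and comparison, by smallest p, with the 5 genes most like Egr1 and the mean of the members. Same-numbered libraries did not deviate together. Other settings were scaling by RLE or by library size, no filter, at least 10 counts in every library, DESeq2 1.42.0, 2 groups only, the replicate block, no Rn45s, thinning and each library left out. Without NC 1 or NC 2 only 1 NC library is left, and the spread comes from the HFD groups alone. Comparisons with NC in those fits are therefore given by size only. On simulated data for DPI against vehicle (10953 genes, 200 changed by a log2 fold of 3), 182 (91%) passed the threshold, with 443 false calls. Smaller changes and the comparisons with NC were not simulated, so this share does not apply to the calls reported there.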

Additional observations from a re-analysis of the deposited data

Results flagged for a closer look

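Within the 4 DPI libraries, Egr3 in DPI 4 stood far from the others. Its 41 counts (4.18 CPM) compare with 3, 0 and 0 counts in DPI 1 to 3, and the gap to the nearest library was 0.956 of the range of the group, above Dixon's 95% critical value for 4 samples. Such a gap was looked for in each of the 10 genes in this group, and chance gives it in about 1 in 20 groups. DPI 4 also had the highest summed markers of neutrophils (5704 CPM), of B cells (423 CPM) and of dendritic cells (450 CPM, of which Ccr7 made 320 CPM). The F4/80+CD11b+Gr1low gate is meant to remove neutrophils and B cells. Their part in Egr3 was not tested.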

How the results depend on the processing

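NC held only 2 libraries. The floor of 3 counts was 0.184 to 1.02 CPM, highest in the smallest library, so Egr3 was near the limit of detection. Members called in vehicle against NC (2) were 1 with RLE scaling, with at least 10 counts in every library, with DESeq2 and with the replicate block, and 1 to 3 without single libraries. Members called in DPI against NC (1) were 2 with library size scaling, with no filter, with DESeq2 and with the replicate block, and 0 to 4 without single libraries, where Jund alone passed adjustment without NC 2 (adjusted p = 0.0332). Library size scaling turned Fosb (-0.16) and Ier2 (-0.11) in vehicle against NC and Fos (-0.13), Jun (-0.15), Ier2 (-0.038) and Atf3 (-0.041) in DPI against NC. The replicate block, which moved the calls over all genes to 897, 818 and 401, turned Fos (-0.067) and Atf3 (-0.19) in DPI against NC. Under it Atf3 lost its call in vehicle against NC (0.88) and Fosb gained one in DPI against NC (-1.13). Same-numbered libraries had correlations of -0.022 to 0.084 and share only a number. Calls over all genes in vehicle against NC (1329) were 726 with at least 10 counts and 1027 to 2634 without single libraries, most without NC 2. In DPI against NC (1058) they were 527 and 830 to 2626, again most without NC 2. Between DPI and vehicle (324) they were 602 with no filter, 202 with at least 10 counts and 187 to 543 without single libraries.

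Leaving out single libraries turned 3 members in vehicle against NC, Fosb (-0.087 to 0.33), Jund (-1.68 to 0.22) and Ier2 (-0.44 to 0.58). In DPI against NC it turned Fos (-0.23 to 0.44), Jun (-0.033 to 0.25), Junb (-0.032 to 1.23), Egr2 (-1.69 to 4.82, the latter against the 2 counts of NC 2), Ier2 (-0.16 to 0.57) and Atf3 (-0.035 to 0.39). Apart from the settings that leave out libraries or genes, the cause of these changes was not tested. With at least 10 counts in every library Egr2 and Egr3 were not fitted, nor was Egr3 in the fit of DPI and NC alone.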
